A study of Mus musculus with 10 samples.

Results

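Glioma-propagating cells cultured from primary tumours (PT) were compared with AstroEGFR*, the astrocytes that had been transplanted to give rise to such tumours. The comparison used 7 of the 10 RNAseq libraries of the study, 3 of AstroEGFR* and 4 of PT, and asked which transcripts differed between the cells before and after tumour formation. The 3 AstroEGFR* libraries (AstroEGFR*1 to AstroEGFR*3) came from C57BL/6 astrocytes of the postnatal day 5 cerebral cortex that lacked p16 and p19, the products of Cdkn2a, and carried a retrovirus overexpressing human EGFRvIII, a constitutively active mutant of the epidermal growth factor receptor. PT1 to PT4 were glioma cells of the same strain and alterations, recovered from tumours grown in the caudate of CD1 Nude female mice, which lack mature T cells. All cells were under passage 10. PT1 and PT4 descended from astrocyte batch 1, whereas batches 2 and 3 gave PT2 and PT3, so each PT was set against AstroEGFR* of its own batch and batch 1 counted as 1 block with 3 libraries. The labels do not say whether PT1 and PT4 came from separate animals, and p-values measure the spread between these libraries only. AstroEGFR* were grown with fetal bovine serum, whereas PT were grown on laminin without serum and with EGF and FGF2, so the change of medium and the passage through a tumour cannot be told apart. Bulk values also cannot tell fewer cells of a type from less RNA per cell.

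As background, cultured astrocytes build actin stress fibres and a collagen-rich matrix under the control of serum response factor (SRF), of YAP and TAZ acting through TEAD factors, and of TGF-β. SRF and YAP are known to respond to serum, to the state of actin and to adhesion. Glioma cells grown without serum usually keep a neural progenitor phenotype, and the matrix of neural tissue consists of hyaluronan, lecticans and tenascins rather than of fibrillar collagen.

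Expression was given for 23230 features in FPKM, that is, as fragments normalised to transcript length and to the mapped total of the library. A feature was kept if its FPKM averaged 1 or more across the 7 libraries, small non-coding RNA and histone features were dropped, and 12095 features were tested. The dropped class held 0.315% to 34.2% of the summed FPKM, with the highest shares, 29.6% and 34.2%, in batch 2. Fragment counts were not used, and the depth is therefore unknown. The batch 3 libraries, AstroEGFR*3 and PT3, had the fewest values above 0 and under 0.01 FPKM, 14 and 23 features against 331 to 647 in the other 5, so the smallest values they could list were larger. A value near 0 is given as listed and not as absence, since Hmgcs1, an enzyme that cells need for sterol synthesis, was at 0 throughout and Gapdh ranged from 0.0106 to 50.1 FPKM. Cdkn2a, the deleted gene, was listed at 6.92, 3.96 and 29.1 FPKM in AstroEGFR* and 7.48, 7.34, 129.7 and 9.01 FPKM in PT. It was therefore not at 0 in any library, and a value per gene does not show which exons gave the fragments. Egfr was listed at 7.81, 362 and 63 FPKM in AstroEGFR* and 23.7, 134, 128 and 18.9 FPKM in PT, with AstroEGFR*1 lowest and AstroEGFR*2 highest. The groups overlapped for both genes, and how much of the human EGFRvIII transcript was counted under the mouse gene is not known.

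PT listed far less of a number of contractile, collagen matrix and YAP target transcripts than AstroEGFR*, and more of brevican, tenascin C, a calcium channel subunit, a protein kinase C and the angiogenic factor VEGF-A. With the batch as a block, 532 of 12095 features (4.4%) passed an adjusted p of 0.05 by limma with Benjamini-Hochberg adjustment. Of these 174 (1.44%) were higher in PT and 358 (2.96%) were lower. The falls were also larger, with a median log2 difference of -2.20 against 1.59 for the rises. Differences of 4 or more on the log2 scale were found for 38 falls and 12 rises. Over all tested features the median was 0.04. Differences are on the scale of log2(FPKM + 1), which understates the change of weakly expressed genes. In all 532 features each of the 4 PT differed from its own batch in the direction of the fit, which the fit favours. An unadjusted p under 0.05 was found for 3141 of the 12095 features, the background for the counts of such genes given below. Lists without a call are to be read beside the 4.4% called. Among all tested features, 22.0% were higher and 18.4% lower in each of the 4 PT. In 429 of the 532 the groups did not overlap. Single libraries weighed on the number of calls, 532 with all 7 libraries. It was 276, 220 and 32 without AstroEGFR*1, AstroEGFR*2 and AstroEGFR*3, and 110, 254, 48 and 53 without PT1, PT2, PT3 and PT4. Without the batch as a block it was 162, of which 160 were among the 532. PT1 and PT4 entered as separate libraries, although they were alike (r = 0.954 across features, against 0.787 to 0.865 for the other PT pairs). Averaging them gave 77 calls.

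**Figure D1:**
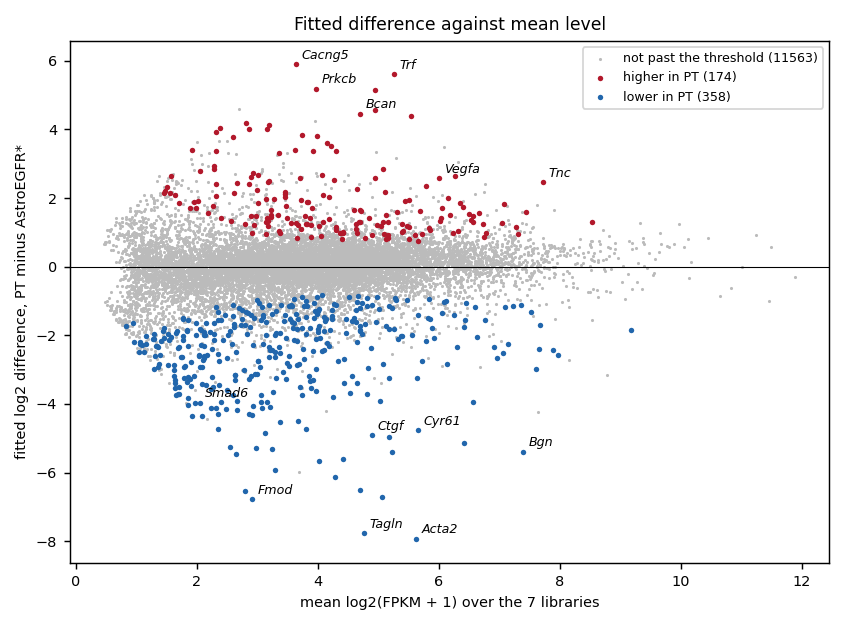
Fitted log2 difference of PT minus AstroEGFR* (vertical axis) against the mean log2(FPKM + 1) over the 7 libraries (horizontal axis), 1 point for each of 12095 features. Red points are the 174 features higher in PT, blue points the 358 lower, and grey points did not pass the threshold; the falls reach below -7 and the rises stay under 6.

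The largest rise was that of Cacng5, a γ subunit of voltage-gated calcium channels that also associates with AMPA receptors. It was listed at 0.156, 0.105 and 0.298 FPKM in AstroEGFR* and 75.8, 47.9, 77.3 and 93.5 FPKM in PT (log2 difference 5.9 ± 0.21 SE, limma adjusted p = 0.00379). Every AstroEGFR* library was under 1 FPKM and every PT above 47, with PT2 the lowest of them. Trf, transferrin, was listed at 0.808, 12.7 and 5.07 FPKM in AstroEGFR* and 29.8, 2382, 324 and 32.7 FPKM in PT (log2 difference 5.62 ± 0.59 SE, limma adjusted p = 0.0161). PT2 stood out with 2382 FPKM, and PT1 and PT4 were little above AstroEGFR*2. Prkcb, a conventional protein kinase C, was listed at 0.486, 4.64 and 0.0878 FPKM in AstroEGFR* and 55.1, 93, 71.5 and 66.5 FPKM in PT (log2 difference 5.18 ± 0.37 SE, limma adjusted p = 0.00804), again without overlap. The next in size were Trp53i11, a p53-induced gene, with 1.98, 4.26 and 4.02 FPKM in AstroEGFR* and 113, 94.1, 372 and 85.1 FPKM in PT (log2 difference 5.14 ± 0.38 SE, limma adjusted p = 0.00804) and Serpina3n, a secreted protease inhibitor of reactive glia, with 6.23, 2.25 and 2.34 FPKM in AstroEGFR* and 294, 26.6, 59.99 and 695 FPKM in PT (log2 difference 4.57 ± 0.61 SE, limma adjusted p = 0.0259). Serpina3n varied among PT, being high in PT1 and PT4 and far lower in PT2.

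The other leading rises came mostly from secreted and surface proteins. Bcan, brevican, a lectican of the neural matrix, had 3.04, 6.07 and 1.87 FPKM in AstroEGFR* and 72.3, 81.5, 74 and 211 FPKM in PT, and Trim9, a brain-enriched ubiquitin ligase, had 4.84, 14.9 and 5.14 FPKM in AstroEGFR* and 176, 96.6, 246 and 193 FPKM in PT. In neither gene did the groups overlap. Angpt2, an endothelial growth factor that acts with VEGF in vessel remodelling, had 0.673, 1.62 and 0.535 FPKM in AstroEGFR* and 19.7, 61.8, 30.6 and 18.8 FPKM in PT (log2 difference 4.12 ± 0.24 SE, limma adjusted p = 0.00719). Ptgds, the prostaglandin D synthase of glia and meninges, had 0.678, 1.16 and 0 FPKM in AstroEGFR* and 14.8, 40.2, 23.8 and 17.3 FPKM in PT (log2 difference 4.0 ± 0.29 SE, limma adjusted p = 0.00804). For both, all PT were at least 10-fold above the highest AstroEGFR* library. Nptx1, a secreted neuronal pentraxin, had 1.29, 9.8 and 0.239 FPKM in AstroEGFR* and 32.7, 145, 22.5 and 21.1 FPKM in PT, and Nrcam, a neuronal adhesion molecule, had 0.451, 0.471 and 2.16 FPKM in AstroEGFR* and 21.9, 59.8, 20.5 and 20.8 FPKM in PT. PT2 was the highest library for both. The receptors Chrm3 for acetylcholine, Htr3a for serotonin and Ednrb for endothelin had log2 differences of 4.19, 3.92 and 3.81, and Agt, angiotensinogen, had 4.03. Chrm3 and Agt were listed at 0 in AstroEGFR*3, as was Htr3a.

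Among the 15 largest falls, 4 encode contractile proteins and 8 encode matrix proteins or modify the matrix. Acta2, smooth muscle actin, was listed at 976, 725 and 1729.7 FPKM in AstroEGFR* and 19.9, 0.239, 4.95 and 2.69 FPKM in PT (log2 difference -7.93 ± 0.73 SE, limma adjusted p = 0.0121), and Tagln, transgelin, at 376, 345 and 1629 FPKM in AstroEGFR* and 2.18, 0.333, 3.2 and 1.96 FPKM in PT (log2 difference -7.76 ± 0.33 SE, limma adjusted p = 0.00534). AstroEGFR*3 was highest and PT2 lowest for both. Fmod, the proteoglycan fibromodulin, was listed at 409.6, 13.1 and 183 FPKM in AstroEGFR* and 0, 0.00653, 0.219 and 0.0377 FPKM in PT (log2 difference -6.78 ± 0.87 SE, limma adjusted p = 0.0254). Mgp, matrix Gla protein, was listed at 541, 113 and 2297 FPKM in AstroEGFR* and 1.78, 0.196, 82.5 and 0.129 FPKM in PT (log2 difference -6.71 ± 0.69 SE, limma adjusted p = 0.0152). PT3 kept 82.5 FPKM of Mgp, not far from the 113 FPKM of AstroEGFR*2, while the other PT were under 2 FPKM. Crym, a thyroid hormone-binding protein, had 76.3, 338 and 34.4 FPKM in AstroEGFR* and 4.99, 0.016, 0.111 and 0.361 FPKM in PT (log2 difference -5.92 ± 0.86 SE, limma adjusted p = 0.0302), and Akr1c14, a hydroxysteroid dehydrogenase, had 177, 56.4 and 33.1 FPKM in AstroEGFR* and 2.38, 0.116, 0.725 and 1.95 FPKM in PT (log2 difference -5.32 ± 0.33 SE, limma adjusted p = 0.00719). These 2 and Gm15698, a predicted gene (-6.54 on the log2 scale), were the leading falls outside contraction and matrix.

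**Figure D2:**
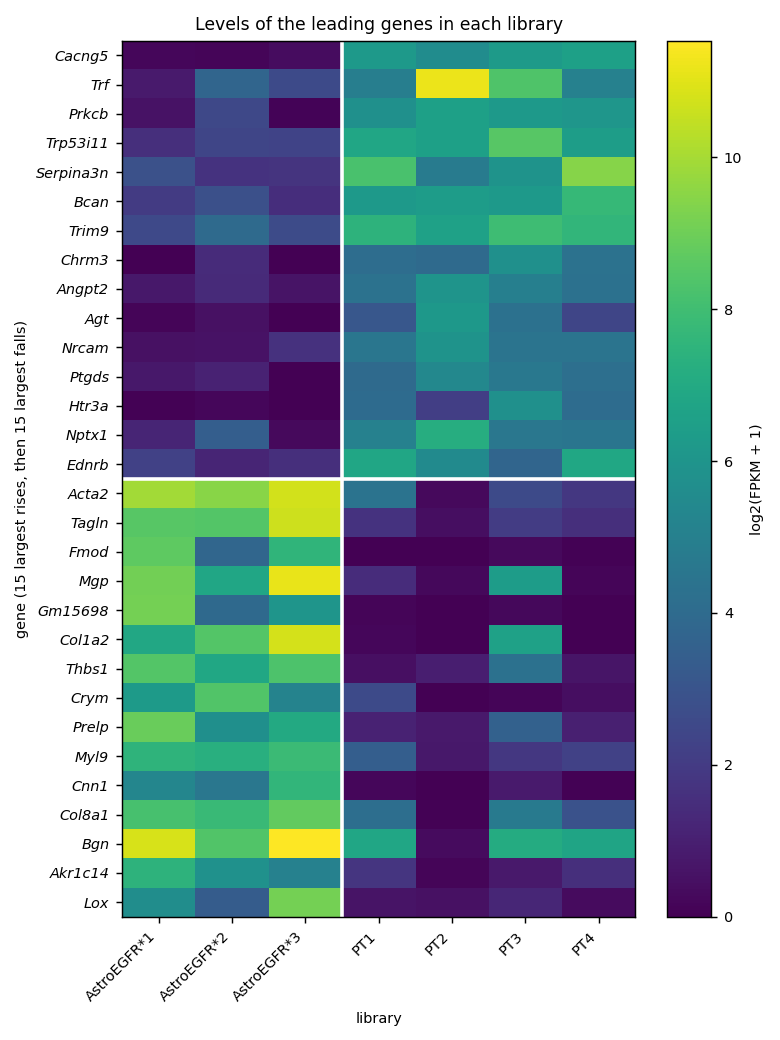
Levels of the 15 genes with the largest rises (upper block) and the 15 with the largest falls (lower block) in each library, as log2(FPKM + 1) by colour, with AstroEGFR* left and PT right of the white line. The genes were chosen by this difference; Mgp and Col1a2 in PT3 and Bgn in PT1, PT3 and PT4 stay visible among the falls, and Trf is brightest in PT2.

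Many contractile genes fell, but not all. Of 25 contractile and SRF target genes, 23 were tested, 12 were lower in PT (against 2.96% of all tested features) and 0 were higher, with a median log2 difference of -2.33. All 23 fitted differences were below 0, and in 16 genes every PT was under every AstroEGFR* library, against 7.91% of all tested features. Besides Acta2 and Tagln, Myl9, a regulatory myosin light chain, had 181, 153 and 228 FPKM in AstroEGFR* and 9.75, 0.663, 2.66 and 3.74 FPKM in PT (log2 difference -5.62 ± 0.46 SE, limma adjusted p = 0.0095), and Cnn1, calponin of smooth muscle, had 38.1, 22.5 and 194 FPKM in AstroEGFR* and 0.146, 0.0289, 0.782 and 0.0372 FPKM in PT (log2 difference -5.45 ± 0.42 SE, limma adjusted p = 0.00891). The groups were separated by more than 10-fold for both. Weaker falls were measured for the actin cross-linker Actn1 (log2 difference -2.83 ± 0.41 SE, limma adjusted p = 0.0291), for tropomyosin Tpm1 (log2 difference -2.59 ± 0.37 SE, limma adjusted p = 0.0291) and for Csrp1, a muscle LIM protein (log2 difference -2.33 ± 0.19 SE, limma adjusted p = 0.0095). Cnn2, Tpm2, Lmod1, Synpo2 and Vcl were the other calls. In contrast, the non-muscle myosin Myh9 had 238, 314 and 169 FPKM in AstroEGFR* and 177, 214, 122 and 98.2 FPKM in PT (log2 difference -0.64 ± 0.26 SE, limma adjusted p = 0.193), and the groups overlapped. Srf itself had 22.3, 17.7 and 14.4 FPKM in AstroEGFR* and 17.4, 7.27, 7.42 and 12.5 FPKM in PT (log2 difference -0.84 ± 0.21 SE, limma adjusted p = 0.0829), and its cofactors Mkl1 and Mkl2 had -0.47 and -0.09. None of the 3 regulators passed the threshold. Myocd and Myh11, which define smooth muscle, were under the filter and at 0.0974 FPKM or less in every library. Leaving out libraries gave 6, 8 and 2 calls without AstroEGFR*1, AstroEGFR*2 and AstroEGFR*3, and 8, 8, 3 and 5 without PT1, PT2, PT3 and PT4. There were 2 without batch 3, where the median was -2.44.

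The promoters of these genes are shown because SRF binds the CArG box, which reads CC, a run of A or T, and GG. RefSeq promoters (GRCm38.p6, 250 bases before to 50 after the start, a build other than the mm9 of the expression values) were matched for 21 of the 25 genes. A CArG box on either strand was in 5 of them (23.8%), against 488 of 27025 promoters of all genes (1.81%). The genes were listed as contractile or SRF target genes, so the share is a description. The 3 that fell in PT were Myl9, Cnn2 and Vcl, and the other 2 were Filip1l and Srf. Each line gives bases around the box, which is in capitals, 5′ to 3′ on the strand of the gene, and none of these windows overlapped a gene in the GENCODE annotation.
Myl9, chr2:156775278-156775337 (+): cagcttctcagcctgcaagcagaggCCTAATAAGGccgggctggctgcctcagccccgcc
Cnn2, chr10:79988519-79988578 (+): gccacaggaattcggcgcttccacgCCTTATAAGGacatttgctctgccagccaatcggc
Vcl, chr14:20929148-20929205 (+): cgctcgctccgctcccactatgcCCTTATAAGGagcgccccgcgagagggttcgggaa
The distance from the box to the transcription start was 151 bases in Myl9, 46 in Cnn2 and 217 in Vcl. No box was found in the other 16 matched windows, those of Acta2 and Cnn1 included. Only exact matches were searched, so a box with a mismatched base would be missed, and the match describes letters, not binding.

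Many genes of the collagen matrix were lower too. All 38 fibrillar matrix genes were tested, of which 18 were lower in PT (2.96% of all features) and 0 higher, with a median log2 difference of -2.94. Col1a2, a chain of type I collagen, was listed at 119, 343 and 1750.1 FPKM in AstroEGFR* and 0.161, 0.00354, 94.9 and 0.0114 FPKM in PT (log2 difference -6.5 ± 0.72 SE, limma adjusted p = 0.0183), and Col1a1, the other chain, at 103, 90.9 and 1816 FPKM in AstroEGFR* and 21.5, 0.0933, 28.4 and 5.38 FPKM in PT (log2 difference -4.95 ± 0.78 SE, limma adjusted p = 0.0347). PT3 was the highest PT for both, and AstroEGFR*3 had the highest level of all. Lox, which cross-links collagen, had 49.97, 9.13 and 564 FPKM in AstroEGFR* and 0.518, 0.446, 1.36 and 0.279 FPKM in PT (log2 difference -5.29 ± 0.85 SE, limma adjusted p = 0.0365). The small proteoglycans Bgn (-5.39), Prelp (-5.66) and Ogn (-4.73) fell together with Fmod, and so did the glycoproteins Thbs1 (-6.13), Postn (-4.16), Fbln5 (-3.28) and Fn1, fibronectin (-2.25), all on the log2 scale. Other members did not pass: Sparc had 1794, 1548 and 4971 FPKM in AstroEGFR* and 1557, 705, 3969 and 1067 FPKM in PT, Col5a1 22.6, 51 and 165 FPKM in AstroEGFR* and 29, 34.8, 76.3 and 22.9 FPKM in PT and Fbn1 18.3, 17.6 and 61.2 FPKM in AstroEGFR* and 10.8, 31.9, 19.9 and 11.1 FPKM in PT, with the groups overlapping in each. P4ha1, a prolyl hydroxylase of collagen, had 50.2, 87.1 and 145 FPKM in AstroEGFR* and 91.5, 140.4, 386 and 64.8 FPKM in PT (log2 difference 0.87 ± 0.24 SE, limma adjusted p = 0.0978). The fibroblast or meninges markers overlap with this list and moved with it: their summed level was 466 to 5601 FPKM in AstroEGFR* and 64.8 to 436 FPKM in PT, with AstroEGFR*3 and PT3 the highest of their groups. Of these markers, Dcn (8.03, 0.692 and 338 FPKM in AstroEGFR* and 0.136, 0.112, 1.24 and 0.00692 FPKM in PT) and Igf2 (1.64, 0.0683 and 268 FPKM in AstroEGFR* and 0.00315, 0.18, 1.1 and 0.357 FPKM in PT) were high in AstroEGFR*3 only. In contrast, Col1a1, Col1a2 and Pdgfrb, also in the marker list, were at 27.9 FPKM or more in all 3 AstroEGFR* libraries. Of the 12 markers tested, 11 had a fitted difference below 0 and 1 above. The part of such markers in the result was not tested. The calls numbered 9, 11 and 3 without AstroEGFR*1, AstroEGFR*2 and AstroEGFR*3, and 4, 12, 3 and 2 without PT1, PT2, PT3 and PT4. Without batch 3 there were 3, with a median of -2.26.

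A few genes of the neural matrix rose. Of 15 neural matrix genes, 10 were tested, 3 were higher in PT (1.44% of all features) and 0 lower, with a median of 1.47. Bcan is given above. Vcan, versican, was listed at 23.6, 10.3 and 21.6 FPKM in AstroEGFR* and 76.1, 36.7, 52.5 and 62 FPKM in PT (log2 difference 1.5 ± 0.17 SE, limma adjusted p = 0.0209), and Tnc, tenascin C, at 29.9, 153 and 142 FPKM in AstroEGFR* and 315, 1046, 307 and 269 FPKM in PT (log2 difference 2.46 ± 0.42 SE, limma adjusted p = 0.0413). The groups did not overlap for either gene, and PT2 had the highest Tnc. Ncan, neurocan, and Ptprz1, a receptor of tenascins and pleiotrophin, had differences of 2.5 and 2.4 (limma adjusted p = 0.139 and 0.0556), but PT3 had only 7.0 FPKM of Ncan and 12.9 FPKM of Ptprz1. Cd44, the hyaluronan receptor, had 136, 77.2 and 116 FPKM in AstroEGFR* and 80.9, 34.2, 114 and 59.2 FPKM in PT (log2 difference -0.74 ± 0.27 SE, limma adjusted p = 0.16). There were 0, 1 and 0 calls without AstroEGFR*1, AstroEGFR*2 and AstroEGFR*3, and 1 without any 1 of the 4 PT.

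Receptors and proteases of the matrix changed in a few members. Of 14 tested integrins, 2 fell, beside 2.96% of all features. Itga3, the laminin-receptor α3 subunit, fell with 58.8, 48.9 and 47.3 FPKM in AstroEGFR* and 9.59, 5.43, 1.62 and 4.47 FPKM in PT (log2 difference -3.34 ± 0.36 SE, limma adjusted p = 0.0167), and Itgb5, a vitronectin-receptor subunit, fell with 177, 95.4 and 111 FPKM in AstroEGFR* and 17.2, 22.7, 4.11 and 18.6 FPKM in PT (log2 difference -3.24 ± 0.42 SE, limma adjusted p = 0.0258). Itgb1, the common β subunit, had 408, 389 and 639 FPKM in AstroEGFR* and 313, 442, 604 and 315 FPKM in PT (log2 difference -0.12 ± 0.20 SE, limma adjusted p = 0.729), and the groups overlapped. Of 21 tested genes of the plasminogen system and matrix proteases, 3 fell and 1 rose, beside 2.96% and 1.44% of all features. Among the falls were the inhibitors Timp2 (log2 difference -1.71 ± 0.21 SE, limma adjusted p = 0.0247) and Timp3 (log2 difference -2.99 ± 0.53 SE, limma adjusted p = 0.0454). The membrane protease Mmp15 rose, with 24.2, 21.1 and 11.4 FPKM in AstroEGFR* and 101, 49.2, 44.5 and 187 FPKM in PT (log2 difference 1.9 ± 0.33 SE, limma adjusted p = 0.0448). Serpine2, another protease inhibitor, had 15.3, 4.95 and 53.7 FPKM in AstroEGFR* and 44.8, 551, 82.4 and 592 FPKM in PT (log2 difference 3.48 ± 1.31 SE, limma adjusted p = 0.173), with PT1 and PT3 near AstroEGFR*3 and PT2 and PT4 10-fold above it. Without AstroEGFR*3, PT3 or PT4 neither list held a call, and without PT1 the protease list held none.

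**Figure D3:**
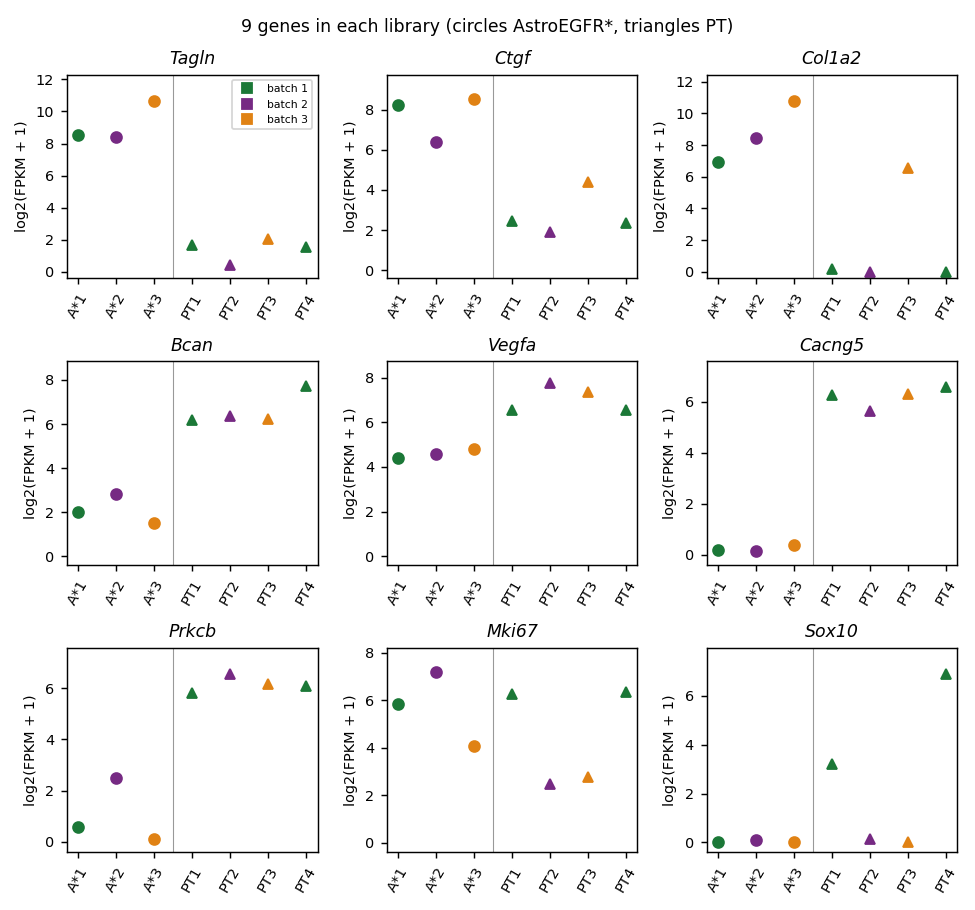
Levels of 9 genes in each library as log2(FPKM + 1), with circles for AstroEGFR* (A*1 to A*3), triangles for PT and colour for the astrocyte batch. Tagln, Ctgf and Col1a2 are lower and Bcan, Vegfa, Cacng5 and Prkcb higher in all PT than in all AstroEGFR*, Mki67 differs between batches, and Sox10 is above 1 FPKM only in PT1 and PT4.

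Several targets of YAP and TEAD fell, as did 1 of the regulators tested. Of 20 genes, 18 were tested, 8 were lower in PT (2.96% of all features) and 0 higher, and the median was -1.34. Ctgf, connective tissue growth factor, was listed at 297, 82.3 and 369.8 FPKM in AstroEGFR* and 4.56, 2.78, 19.97 and 4.07 FPKM in PT (log2 difference -4.91 ± 0.35 SE, limma adjusted p = 0.00804), and Cyr61, a related matricellular protein, at 301, 317 and 416 FPKM in AstroEGFR* and 9.4, 6.75, 22.6 and 10.1 FPKM in PT (log2 difference -4.77 ± 0.24 SE, limma adjusted p = 0.00586). For both, PT3 was the highest PT and still below every AstroEGFR* library. The other falls were Ccdc80 (-3.31), the kinase Nuak2 (-2.6), the angiomotin Amotl2 (-2.46), the transmembrane protein Crim1 (-1.85), the LIM protein Jub (-1.83) and the factor Tead3 (-1.31), all on the log2 scale. Yap1 had 61.5, 36.3 and 53 FPKM in AstroEGFR* and 43.4, 24.8, 44.7 and 27.7 FPKM in PT (log2 difference -0.55 ± 0.23 SE, limma adjusted p = 0.196), and Wwtr1, which encodes TAZ, had 111, 96.1 and 136 FPKM in AstroEGFR* and 73, 101, 183 and 59.2 FPKM in PT (log2 difference -0.15 ± 0.27 SE, limma adjusted p = 0.748). The groups overlapped for both, and Tead1 (-0.45) and Tead2 (0.17) did not pass either. Lats2, Axl and Amotl1 were also uncalled, Amotl1 with 0.53. The list held 5, 5 and 2 calls without AstroEGFR*1, AstroEGFR*2 and AstroEGFR*3, and 5, 5, 3 and 3 without PT1, PT2, PT3 and PT4. Without batch 3 there were 3, and Ctgf and Cyr61 passed in all 15 alternative settings.

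Promoter windows of targets are shown for the TEAD motif GGAATG, searched on both strands. It was in 8 of the 10 promoters matched among 14 targets (80.0%), against 4481 of 27025 promoters of all genes (16.6%). The targets were listed because they are known as YAP and TEAD targets, so the share is a description. The AP-1 motif TGANTCA, which often accompanies TEAD sites, was in 1 of the 10, F3, against 8.97% of all. The motif, or its reverse complement CATTCC, is in capitals, and both windows lay outside annotated genes.
Cyr61, chr3:145650058-145650113 (-): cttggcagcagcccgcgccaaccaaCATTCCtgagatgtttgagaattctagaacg
Crim1, chr17:78200144-78200199 (+): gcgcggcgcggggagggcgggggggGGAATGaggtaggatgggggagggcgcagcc
The motif lay 97 bases before the start in Cyr61, named Ccn1 in RefSeq, and 73 bases before it in Crim1. Amotl2 and Jub, which also fell, held the motif in their windows as well, and so did Ankrd1, Axl, Lats2 and Ptpn14, which were not called or not tested.

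In TGF-β and BMP signalling, some ligands, antagonists and targets fell, but the receptors and the signal-carrying SMADs did not pass. Of 46 genes, 42 were tested, 10 were lower (2.96% of all features) and 0 higher, with a median of -0.67. Among ligands, Tgfb3 fell with 63.1, 32.8 and 99.2 FPKM in AstroEGFR* and 15.6, 7.79, 4.19 and 12.5 FPKM in PT (log2 difference -2.7 ± 0.46 SE, limma adjusted p = 0.0423) and Bmp4 with 10.1, 3.14 and 5.69 FPKM in AstroEGFR* and 0.0606, 0.0863, 0.195 and 0.364 FPKM in PT (log2 difference -2.61 ± 0.35 SE, limma adjusted p = 0.0261). Tgfb1 (24.6, 3.83 and 30.2 FPKM in AstroEGFR* and 3.41, 4.09, 4.98 and 3.76 FPKM in PT) was low in AstroEGFR*2 and the groups overlapped, and Tgfb2 (6.61, 7.44 and 9.72 FPKM in AstroEGFR* and 11.5, 11.4, 39.98 and 26.2 FPKM in PT) was highest in PT3 and PT4. Among antagonists and matrix-binding proteins, Fst, follistatin, which binds activin (-2.38), Fstl1 (-2.44) and Ltbp1, which tethers latent TGF-β (-2.51), fell on the log2 scale. The inhibitory Smad6 had 26.3, 14.4 and 16.8 FPKM in AstroEGFR* and 0.25, 0.621, 0 and 0.394 FPKM in PT (log2 difference -3.97 ± 0.29 SE, limma adjusted p = 0.00804) and Smad7 had 16.9, 14.3 and 9.98 FPKM in AstroEGFR* and 2.45, 1.43, 2.46 and 2.21 FPKM in PT (log2 difference -2.27 ± 0.25 SE, limma adjusted p = 0.0179), each without overlap. Id3 and Id4, BMP-induced inhibitors of bHLH factors, fell by 2.39 and 3.74 on the log2 scale, and Id4 was listed at 92.5, 41 and 7.95 FPKM in AstroEGFR* and 2.86, 0.55, 1.04 and 5.82 FPKM in PT. Id1 had -1.73 and Id2 -0.21, neither past the threshold. Of the receptors tested none was called, with Tgfbr1 at 0.47 and Bmpr1a at -0.68, and Smad1 to Smad5 lay between -0.13 and 0.19. Left-out libraries gave 3, 7 and 1 calls without AstroEGFR*1, AstroEGFR*2 and AstroEGFR*3, and 1, 9, 1 and 1 without PT1, PT2, PT3 and PT4.

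A few axon guidance genes fell. Of 64 genes, 52 were tested, 6 were lower (2.96% of all features) and 1 higher (1.44% of all features), with a median of -0.22. The repellents Slit2 (16.8, 5.52 and 37.7 FPKM in AstroEGFR* and 0.0471, 0.0406, 0.535 and 0.0592 FPKM in PT) and Slit3 (13.6, 8.87 and 35 FPKM in AstroEGFR* and 1.26, 0.0255, 0.991 and 0.43 FPKM in PT) fell, with limma adjusted p = 0.0161 and 0.0122. Their receptors Robo1 (-0.15) and Robo2 (-0.18) did not pass. Of the semaphorins, Sema3c fell with 43.8, 20.6 and 64.9 FPKM in AstroEGFR* and 2.1, 0.475, 4.24 and 0.918 FPKM in PT (log2 difference -3.94 ± 0.25 SE, limma adjusted p = 0.00719), and Sema3a rose with 1.22, 1.53 and 6.73 FPKM in AstroEGFR* and 17.7, 57.9, 54.2 and 15.4 FPKM in PT (log2 difference 3.41 ± 0.35 SE, limma adjusted p = 0.0152). Neither had an overlap between the groups, and their shared receptor Nrp1 had 36.2, 46.2 and 72 FPKM in AstroEGFR* and 15.3, 37.8, 50.5 and 14.2 FPKM in PT. Epha4, an Eph receptor, fell with 18.1, 20.1 and 10.04 FPKM in AstroEGFR* and 0.476, 1.43, 0.113 and 0.365 FPKM in PT (log2 difference -3.43 ± 0.23 SE, limma adjusted p = 0.00804), and the ephrins Efna5 and Efnb1 fell by 2.58 and 1.02 on the log2 scale. No netrin, plexin or neuropilin gene passed, although 27 of the 52 tested genes had an unadjusted p under 0.05. The lower calls numbered 4, 5 and 1 without AstroEGFR*1, AstroEGFR*2 and AstroEGFR*3, and 3, 5, 2 and 2 without PT1, PT2, PT3 and PT4, and the rise of Sema3a was lost without AstroEGFR*3, PT1, PT3 or PT4.

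Cacng5 and Prkcb were each the only call of their family, and whether they differed from their relatives was not tested. Of 21 glutamate receptor and γ subunit genes, 10 were tested and Cacng5 alone was called, beside 1.44% of all features called higher. Its relatives Cacng7 (35, 19.9 and 55.4 FPKM in AstroEGFR* and 48.3, 21.7, 74.9 and 62.5 FPKM in PT) and Cacng8 (7.0, 13.5 and 26.4 FPKM in AstroEGFR* and 9.28, 4.63, 9.27 and 11.4 FPKM in PT) overlapped between the groups. Cacng4 had 0.0266, 0.394 and 0 FPKM in AstroEGFR* and 1.68, 1.38, 0.45 and 39.7 FPKM in PT, with all PT above all AstroEGFR* and PT4 far above the others. Of the AMPA receptor subunits with which γ subunits associate, Gria3 had 13.6, 12.2 and 35.3 FPKM in AstroEGFR* and 9.79, 9.995, 25.1 and 18.1 FPKM in PT (log2 difference -0.23 ± 0.25 SE, limma adjusted p = 0.589), and Gria1, Gria2 and Gria4 were at 21.3 FPKM or less in every library. Of 10 protein kinase C genes, 7 were tested and Prkcb was the only call, beside the same 1.44%. Prkca, a conventional isoform like Prkcb, had 15.3, 12.8 and 14.3 FPKM in AstroEGFR* and 10.1, 7.47, 5.25 and 11.8 FPKM in PT (log2 difference -0.78 ± 0.22 SE, limma adjusted p = 0.1), and Prkce had 3.41, 2.69 and 4.71 FPKM in AstroEGFR* and 4.93, 7.2, 12.7 and 6.34 FPKM in PT (log2 difference 0.96 ± 0.23 SE, limma adjusted p = 0.0774). Without passing the threshold, Prkce and Prkcq were listed higher and Prkca and Prkci lower in all PT than in all AstroEGFR*. The calls of Cacng5 and Prkcb held in all 15 alternative settings.

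Genes of neural progenitors gave no call. Of 29 genes, 26 were tested and 0 passed by limma, 6 had an unadjusted p under 0.05, and the median was -0.09. Sox2, which maintains neural stem cells, had 266, 114 and 74.4 FPKM in AstroEGFR* and 255, 80.1, 96.3 and 255 FPKM in PT (log2 difference -0.06 ± 0.21 SE, limma adjusted p = 0.865), and Sox9 had 57, 16.2 and 37 FPKM in AstroEGFR* and 59.5, 18.6, 24.8 and 58.2 FPKM in PT. For both, each PT lay close to AstroEGFR* of its own batch. Nes, nestin, had 318, 237 and 103 FPKM in AstroEGFR* and 682, 154, 158 and 423 FPKM in PT, and Fabp7, a radial glia protein, had 778, 1261 and 393 FPKM in AstroEGFR* and 1964, 484, 58 and 2411 FPKM in PT. Olig2, which marks progenitors of oligodendrocytes and gliomas, had 41.1, 42.9 and 7.75 FPKM in AstroEGFR* and 328, 72.9, 39.7 and 360.4 FPKM in PT (log2 difference 2.1 ± 0.43 SE, limma adjusted p = 0.0584), with PT1 and PT4 far above the other 5 libraries. It passed only when AstroEGFR*2 or PT2 was left out, among the leave-outs of 1 library.

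Most lineage genes of oligodendrocytes were listed higher in PT1 and PT4 than in their own batch, without a call across batches. Of 20 such genes, 15 were tested, 0 passed by limma and 3 had an unadjusted p under 0.05. The median difference from the own batch was 1.06 in PT1 and 3.14 in PT4, but -0.13 in PT2 and 0 in PT3. Sox10, the master regulator of the lineage, was listed at 0, 0.0757 and 0 FPKM in AstroEGFR* and 8.18, 0.103, 0 and 117 FPKM in PT. Pdgfra, the receptor of oligodendrocyte progenitors, was listed at 1.48, 3.36 and 5.67 FPKM in AstroEGFR* and 1.25, 0.394, 0.218 and 41.9 FPKM in PT, and Cspg4, the NG2 proteoglycan, at 3.9, 1.12 and 7.08 FPKM in AstroEGFR* and 18, 1.41, 0.0295 and 64.5 FPKM in PT. PT4 was highest for all 3. Gpr17 and Lhfpl3, markers of committed progenitors, reached 12.1 and 73.8 FPKM in PT4 and stayed at 3.27 FPKM or less elsewhere. The myelin genes Mog and Mag were at 0.18 FPKM or less in every library. The summed level of the list was 143 to 366 FPKM in AstroEGFR*, 1541 in PT1, 2077 in PT4, 238 in PT2 and 191 in PT3.

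Astrocyte genes gave 2 falls among 17 tested (2.96% of all features), and neuronal genes gave 0 calls among 17 tested, of which 5 had an unadjusted p under 0.05. Aqp4, the astrocyte water channel, had 75.5, 15.8 and 31.3 FPKM in AstroEGFR* and 10.7, 1.6, 3.56 and 30.4 FPKM in PT (log2 difference -2.45 ± 0.39 SE, limma adjusted p = 0.0365), and Mlc1, a membrane protein of astrocyte endfeet, had 506, 248 and 181 FPKM in AstroEGFR* and 188, 106, 56.8 and 269.6 FPKM in PT (log2 difference -1.33 ± 0.22 SE, limma adjusted p = 0.0367). PT4 had about as much Aqp4 as AstroEGFR*3 and more Mlc1 than AstroEGFR*2 or AstroEGFR*3, so the fall was relative to the batch. Neither passed without AstroEGFR*2, AstroEGFR*3, PT1, PT2 or PT3, and Slc1a3 passed as higher without AstroEGFR*3 or PT3. Gfap, the intermediate filament of astrocytes, had 47.3, 109 and 725 FPKM in AstroEGFR* and 95.6, 5.95, 81.2 and 81.5 FPKM in PT (log2 difference -1.78 ± 0.95 SE, limma adjusted p = 0.289), and the groups overlapped, with AstroEGFR*3 highest. Aldh1l1, an astrocyte enzyme, had 178, 149 and 127 FPKM in AstroEGFR* and 178, 71.9, 49.9 and 175 FPKM in PT (log2 difference -0.72 ± 0.29 SE, limma adjusted p = 0.192). Both markers of the labelled cell type were thus present in AstroEGFR* and in PT. Of the neuronal genes 12 had a fitted difference above 0 and 5 below, with a median of 0.35. Dlx1, a factor of interneurons, had 5.77, 5.1 and 4.14 FPKM in AstroEGFR* and 1.77, 1.1, 4.13 and 1.24 FPKM in PT, with PT3 at the level of AstroEGFR*3, and Stmn2, a tubulin-binding protein, had 3.04, 0 and 12.3 FPKM in AstroEGFR* and 0, 0, 0 and 0.00649 FPKM in PT. Gap43 had 2.29, 5.57 and 18.1 FPKM in AstroEGFR* and 31.1, 38.6, 12.3 and 112 FPKM in PT and Mapt, tau, had 0.374, 0.303 and 0.121 FPKM in AstroEGFR* and 7.03, 10.7, 1.41 and 49.6 FPKM in PT, with PT4 highest in both, while Rbfox3 and Slc17a6, which define mature neurons, were at 0.0208 FPKM or less. Forebrain and posterior patterning genes gave 0 calls of 16 tested, 7 with an unadjusted p under 0.05.

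**Figure D4:**
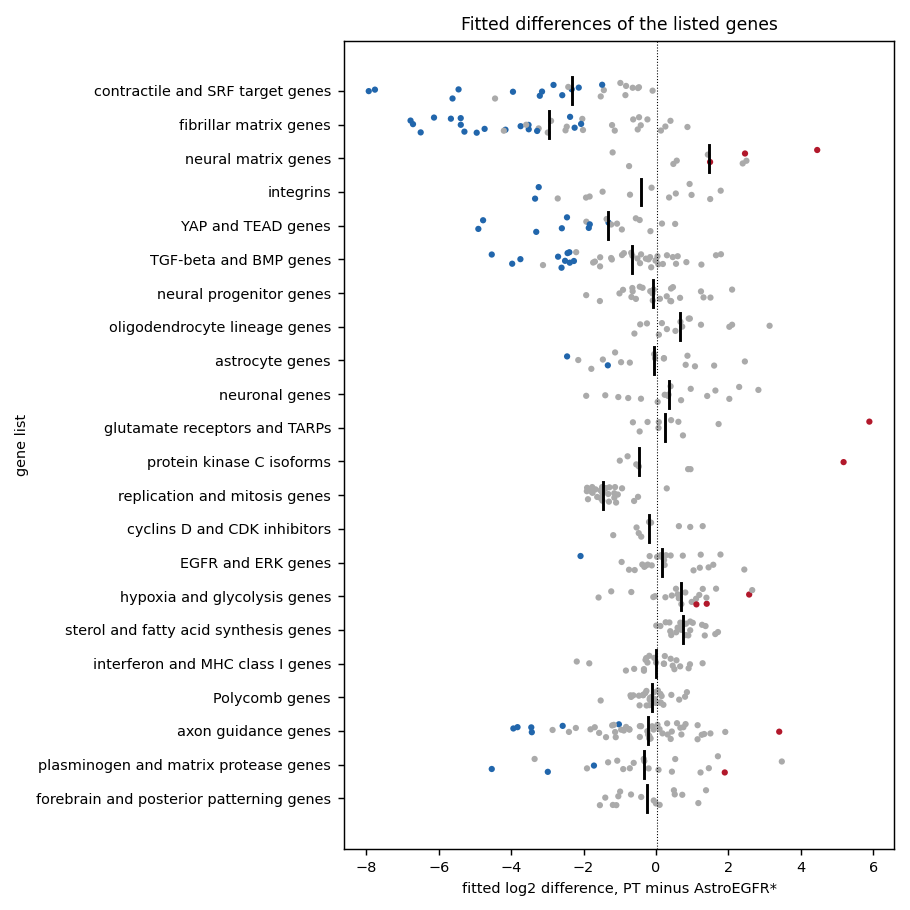
Fitted log2 difference of PT minus AstroEGFR* (horizontal axis) of each tested gene in 22 gene lists (rows), with red for genes higher in PT past the threshold, blue for lower and grey for the rest. Black bars are the list medians and the dotted line is the median of all 12095 features, 0.04. The medians of the contractile, fibrillar matrix, YAP and replication lists lie left of it, while the replication list holds no call.

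Replication and mitosis genes differed between the PT. None of the 29 genes passed by limma, 2 had an unadjusted p under 0.05, Ccne1 passed as lower without AstroEGFR*1, and the median was -1.47. The PT fell on both sides of their batches. Against the own batch, the median was 0.71 in PT1 and 0.24 in PT4, -3.82 in PT2 and -1.36 in PT3. All 29 genes were lower in PT2 than in AstroEGFR*2, 28 were lower in PT3, 7 in PT4 and 0 in PT1. Mki67, the Ki-67 antigen of cycling cells, had 55.6, 146 and 15.8 FPKM in AstroEGFR* and 75.8, 4.54, 5.83 and 78.8 FPKM in PT, and Rrm2, a subunit of ribonucleotide reductase, had 79.7, 109 and 75.8 FPKM in AstroEGFR* and 114, 2.68, 20.3 and 93 FPKM in PT. Birc5, survivin, had 57.9, 86.3 and 56.9 FPKM in AstroEGFR* and 110.4, 2.37, 12.7 and 76.6 FPKM in PT. PT2 was the lowest library and PT3 the next for Birc5, Rrm2, Mcm5 and Ccna2. Among cyclins and inhibitors, 0 of 9 tested genes passed and 2 had an unadjusted p under 0.05. Ccnd1, cyclin D1, had 955, 1069 and 449.6 FPKM in AstroEGFR* and 968, 315, 893 and 1085 FPKM in PT, lowest in PT2. Cdkn1a, p21, had 63.5, 17.3 and 56 FPKM in AstroEGFR* and 128, 69.1, 99.2 and 162 FPKM in PT (log2 difference 1.29 ± 0.25 SE, limma adjusted p = 0.053), with all PT above all AstroEGFR*, and Cdkn2b, p15, had 119.8, 46.5 and 121 FPKM in AstroEGFR* and 77.3, 162, 253 and 86.8 FPKM in PT (log2 difference 0.63 ± 0.45 SE, limma adjusted p = 0.411).

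**Figure D5:**
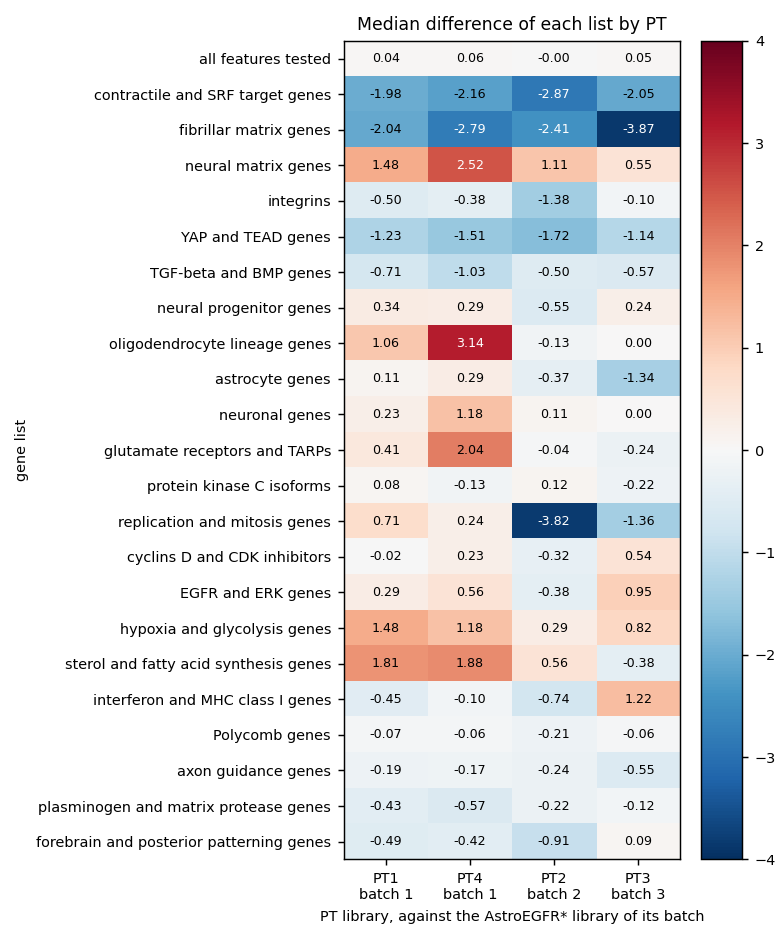
Median log2 difference over the tested members of each list (rows) between each PT and AstroEGFR* of its own batch (columns), printed in the cells, with blue below and red above 0 and all 12095 features in the top row. The contractile, fibrillar matrix and YAP lists are below -1 in all 4 columns, whereas the replication, oligodendrocyte and interferon lists change sign or size between PT.

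Of the EGFR and ERK genes, 25 of 28 were tested and 1 passed, a share near the 4.4% of all features. Hbegf, a ligand of EGFR, fell with 129, 147 and 130.3 FPKM in AstroEGFR* and 47.8, 16.1, 48.4 and 27 FPKM in PT (log2 difference -2.08 ± 0.37 SE, limma adjusted p = 0.0467). The ERK feedback genes Spry4 (12, 30.4 and 2.42 FPKM in AstroEGFR* and 42.4, 67.7, 72.6 and 55.7 FPKM in PT) and Spry2 (42.1, 45.7 and 14 FPKM in AstroEGFR* and 60.1, 97.7, 124 and 62.4 FPKM in PT) and the ERK-induced factor Etv5 (84.2, 102 and 29.6 FPKM in AstroEGFR* and 132, 172, 105 and 141 FPKM in PT) were higher in all PT than in all AstroEGFR*, with limma adjusted p = 0.0801, 0.137 and 0.0814. Dusp6 (112, 212 and 27.2 FPKM in AstroEGFR* and 186, 228, 249 and 167 FPKM in PT) and Egr1 (37.9, 49.7 and 81.5 FPKM in AstroEGFR* and 52, 14.4, 234 and 80.5 FPKM in PT) overlapped. Non-overlap with PT higher was found in 7.04% of all tested features and in 4 of these 25. Hbegf did not pass when any 1 of the 7 libraries was left out, and Etv1 passed as higher without AstroEGFR*2 or PT2.

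Hypoxia and glycolysis genes rose in part. All 23 were tested, 3 rose (1.44% of all features) and 0 fell, and the median was 0.70. Vegfa, the main angiogenic factor, was listed at 19.99, 23 and 27.1 FPKM in AstroEGFR* and 91.3, 216, 162 and 93.5 FPKM in PT (log2 difference 2.58 ± 0.23 SE, limma adjusted p = 0.0112), and Pdk1, which restrains pyruvate oxidation, at 9.5, 5.63 and 14.3 FPKM in AstroEGFR* and 33.5, 18.7, 29.97 and 27.2 FPKM in PT (log2 difference 1.4 ± 0.19 SE, limma adjusted p = 0.0269). Hif1a, the hypoxia-inducible factor itself, was listed at 27.1, 42.5 and 45 FPKM in AstroEGFR* and 62.8, 124, 69 and 64.5 FPKM in PT (log2 difference 1.12 ± 0.21 SE, limma adjusted p = 0.0498). The groups did not overlap for any of the 3. Bnip3 (log2 difference 1.11 ± 0.24 SE, limma adjusted p = 0.0663), Egln3 (log2 difference 1.66 ± 0.46 SE, limma adjusted p = 0.101) and Adm (log2 difference 2.66 ± 0.88 SE, limma adjusted p = 0.14), all induced by hypoxia, and the glucose transporter Slc2a1 (log2 difference 0.81 ± 0.24 SE, limma adjusted p = 0.116) did not pass. The rises numbered 1, 2 and 0 without AstroEGFR*1, AstroEGFR*2 and AstroEGFR*3, and 1, 2, 0 and 0 without PT1, PT2, PT3 and PT4. Without AstroEGFR*1 there was also 1 fall.

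Sterol and fatty acid synthesis genes, which SREBP factors control, had 23 fitted differences above 0 of 23 tested and a median of 0.76, but 0 passed by limma and 6 had an unadjusted p under 0.05. Against the own batch the median was 1.81 in PT1, 1.88 in PT4, 0.56 in PT2 and -0.38 in PT3. Insig1, an SREBP target and sterol sensor, had 36.2, 89.6 and 81.7 FPKM in AstroEGFR* and 196, 274, 113 and 239.7 FPKM in PT (log2 difference 1.64 ± 0.40 SE, limma adjusted p = 0.0809), and Fads1, a fatty acid desaturase, had 98.6, 85.2 and 107 FPKM in AstroEGFR* and 251, 232, 172 and 361 FPKM in PT (log2 difference 1.28 ± 0.26 SE, limma adjusted p = 0.058).

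Interferon and MHC class I genes had a median of 0.01 and 0 calls by limma among 23, of which 3 had an unadjusted p under 0.05. H2-K1 passed only without AstroEGFR*1. Their direction differed between batches, with a median against the own batch of 1.22 in PT3 and -0.45, -0.74 and -0.10 in PT1, PT2 and PT4. H2-K1, a heavy chain of MHC class I, had 27.6, 35.9 and 59.97 FPKM in AstroEGFR* and 18, 169.9, 453 and 17.5 FPKM in PT, and B2m, its light chain, had 330.3, 477 and 666 FPKM in AstroEGFR* and 179, 813, 2717 and 136 FPKM in PT. PT3 was the highest of the 7 libraries for both genes, PT2 had more H2-K1 and B2m than AstroEGFR*2, and PT1 and PT4 had the least H2-K1 and B2m.

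Polycomb genes gave no call, beside 4.4% of all features. The study examined Polycomb through the histone mark H3K27me3 by ChIPseq, which the transcript levels of these genes do not measure. Of 29 genes, 0 passed by limma in this fit or in any of the 15 alternatives, 7 had an unadjusted p under 0.05, and the differences ranged from -1.53 to 0.86 on the log2 scale with a median of -0.12. Against the own batch the median was -0.07 in PT1, -0.06 in PT4 and PT3 and -0.21 in PT2. Ezh2, the methyltransferase of PRC2, had 21.9, 36.9 and 35 FPKM in AstroEGFR* and 54.4, 9.88, 21.2 and 36.6 FPKM in PT (log2 difference -0.35 ± 0.53 SE, limma adjusted p = 0.706). PT1 was the highest library and PT2 the lowest. Suz12 and Eed, its core partners, had -0.08 and -0.05. Phf19, a PRC2 accessory protein, had the most negative difference with 9.66, 11 and 3.9 FPKM in AstroEGFR* and 5.38, 0.763, 0.917 and 5.48 FPKM in PT (log2 difference -1.53 ± 0.41 SE, limma adjusted p = 0.0921), and the PRC1 subunit Bmi1 had 29.9, 32.1 and 27.5 FPKM in AstroEGFR* and 42.1, 42, 33.8 and 47.4 FPKM in PT (log2 difference 0.43 ± 0.15 SE, limma adjusted p = 0.16).

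Markers of microglia, endothelium and blood summed to 42.0 FPKM or less in every library, whereas those of pericytes reached 84.5 FPKM and those of fibroblasts or meninges 5601 FPKM. The microglia list summed to 8.99 to 42.0 FPKM in AstroEGFR* and 2.67 to 36.7 FPKM in PT. Its members Aif1, Cx3cr1 and Ptprc were at 0.73 FPKM or less in every library. Most of the sum in AstroEGFR*3 came from Tmem119, which is also expressed by mesenchymal cells. Tmem119 had 7.61, 4.89 and 38 FPKM in AstroEGFR* and 0.626, 0.0367, 0.31 and 0.378 FPKM in PT (log2 difference -3.23 ± 0.51 SE, limma adjusted p = 0.0359). In PT2 most of the sum came from Cd68, at 36.5 FPKM. AstroEGFR*1 had a sum of 22.9 FPKM, of which Tmem119 made up 7.61 and Tyrobp 4.41 FPKM, with the rest from other members. Endothelial markers summed to 1.84 to 6.78 FPKM in AstroEGFR* and 0.426 to 10.6 FPKM in PT, of which Flt1 made up most in PT1 and PT4, while Cldn5 was at 0.0129 FPKM or less. Blood markers summed to 0.0508 to 0.275 FPKM. Pericyte markers summed to 30.1 to 84.5 FPKM in AstroEGFR* and 3.41 to 65.7 FPKM in PT, where Cspg4 made up 64.5 FPKM of the sum in PT4, and Pdgfrb, the PDGF receptor of pericytes and fibroblasts, fell with 42.1, 27.9 and 65.7 FPKM in AstroEGFR* and 1.91, 0.182, 4.94 and 0.849 FPKM in PT (log2 difference -4.12 ± 0.29 SE, limma adjusted p = 0.00804). In the fibroblast or meninges list, 12 of 13 were tested, 3 fell and Ptgds rose, beside 2.96% and 1.44% of all features. Twist1 (log2 difference -2.04 ± 0.43 SE, limma adjusted p = 0.0626) and Foxc1 (log2 difference -2.01 ± 0.59 SE, limma adjusted p = 0.112) did not pass.

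Some genes moved in opposite directions in PT of different batches. In 15 features the differences from the own batch were at least 2 on the log2 scale in PT1 and PT4 and at least 2 with the other sign in PT2 or PT3. The library of the other sign was PT2 in 10 features and PT3 in 6, with 1 feature in both. Slc1a3, the glutamate transporter GLAST, had 6.02, 25 and 48.2 FPKM in AstroEGFR* and 117, 296, 2.2 and 170.1 FPKM in PT, and Gpr37l1, an astrocyte receptor, had 8.37, 2.88 and 46.6 FPKM in AstroEGFR* and 91.8, 28, 0.624 and 160.3 FPKM in PT. Both were higher than the own batch in PT1, PT2 and PT4 and lower in PT3. Wnt7b, a Wnt ligand of neural tissue, had 6.56, 42.5 and 0.335 FPKM in AstroEGFR* and 466, 1.83, 21.7 and 253 FPKM in PT, and Nefl, a neurofilament, had 0.119, 13.4 and 0 FPKM in AstroEGFR* and 11.5, 0, 34.5 and 6.71 FPKM in PT. Both were higher than the own batch in PT1, PT3 and PT4 and lower in PT2. Ptgs2, the inducible cyclooxygenase, had 7.76, 1.38 and 19.2 FPKM in AstroEGFR* and 0.238, 54.6, 15.3 and 0.372 FPKM in PT, and Slc35f1 had 1.19, 48.8 and 13.1 FPKM in AstroEGFR* and 25.4, 5.88, 2.31 and 28.4 FPKM in PT. In the fit across batches none of the 6 passed, with limma adjusted p from 0.451 to 0.995. Each of batches 2 and 3 held 1 PT, and the difference between batches was not tested.

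The calls that did not depend on the settings were few. In all 15 alternatives 17 of the 532 features were called, 5 higher and 12 lower. Those higher were Cacng5, Prkcb, Trp53i11, Angpt2 and Ptgds. Tagln, Cnn1, Ctgf, Cyr61, Pdgfrb, Sema3c and Akr1c14 were lower, as were 5 genes named here after their values were seen. These were Atp2b4, a calcium pump (-4.32), Pdgfd, a PDGF ligand (-3.55), Ctnnal1, an α-catenin-like protein (-3.19), Baalc (-4.3) and Klhdc8a (-4.02), all on the log2 scale. Pdgfd was listed at 15.3, 11.3 and 37.9 FPKM in AstroEGFR* and 0.462, 0.161, 2.05 and 0.284 FPKM in PT and its receptor Pdgfrb fell as given above.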

How the data were processed

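RNA was sequenced from 3 AstroEGFR* and 4 PT libraries, and the 3 libraries with Zfp423 were not analysed here. The authors deposited 1 matrix of FPKM values, 1 column per library and 1 row per gene symbol, made with TopHat 1.3 and Cuffnorm on mm9 according to the submitters' processing notes. The labels name a TruSeq kit, whereas the paper describes ribosomal RNA removal and stranded libraries. Since FPKM hold no counts, count models were not used, the depth is unknown and precision rests on the spread between libraries. A change in highly abundant transcripts shifts all other FPKM of a library.

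Features with a mean FPKM of 1 or more were kept, except 166 small non-coding RNA and histone features. PT and AstroEGFR* were compared on log2(FPKM + 1) with limma 3.58.1 in R 4.3.3, with the astrocyte batch as a block and empirical Bayes with a trend. Benjamini-Hochberg adjustment ran over all 12095 features with a threshold of 0.05, and the fit was tested on simulated data. Tables and figures used Python 3.11.15, numpy 2.4.6, pandas 2.3.3 and matplotlib 3.10.9. The batch of each PT comes from the study's description of the cultures. The block was set with the comparison. Deviations from the group mean correlated within each batch (r = 0.288 for PT1, 0.147 for PT2, 0.438 for PT3 and 0.38 for PT4), each highest with its own batch. Batches also differed in the share of small RNA and histone features, so these correlations do not show common descent.

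The genes named are the 15 largest rises and 15 largest falls among calls with all 4 PT in the direction of the fit, the members of each list that passed, up to 4 others with large differences, members that show an unchanged role, Cdkn2a, Cdkn2b and Egfr, and 6 genes with opposite differences between batches. The comparison, the members and the lists were chosen with earlier results of these data known. Jub, Gm98 and Mtap2 are the matrix's symbols for Ajuba, Myrf and Map2. Some list members that the rule covers are counted but not reported by name here. The alternatives were no block, a pseudocount of 0.1, median-ratio scaling, the small RNA and histone features kept, PT1 and PT4 averaged, no filter, no trend, no batch 3 and each library left out in turn. With libraries left out, the filter was applied to those that remained. RefSeq promoters of GRCm38.p6 were used for sequences only.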

Additional observations from a re-analysis of the deposited data

Results flagged for a closer look

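Among the 4 PT, 1 library lay far from the other 3 in 7 of the 30 leading genes, where chance flags about 1 in 20 groups. PT3 stood above the others for Col1a2 (94.9 FPKM), Thbs1 (18.5 FPKM) and Prelp (11.1 FPKM). PT4 was highest for Bcan (211 FPKM), PT2 for Nrcam (59.8 FPKM) and PT1 for Crym (4.99 FPKM). PT2 was lowest for Bgn (0.245 FPKM). The groups did not overlap in any of these genes.

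In the 6 named genes of the 15 features described above, PT1 and PT4 differed from their batch in 1 direction and the PT of another batch in the opposite direction, and this difference between batches was not tested. In PT3 the log2 difference from the own batch was -3.94 for Slc1a3 and -4.88 for Gpr37l1. In PT2 it was -3.94 for Wnt7b, -2.86 for Slc35f1, -3.85 for Nefl and 4.54 for Ptgs2.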

How the results depend on the processing

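Of 532 calls, 174 higher and 358 lower, most alternatives gave fewer: without the replicate block, that is, without the pairing, there were 162, 43 higher and 119 lower. Averaging PT1 and PT4 gave 77 (16 and 61), no filter on low values 95 (23 and 72) and no batch 3 43 (15 and 28). Leaving out 1 library gave 32 to 276 calls, 10 to 100 higher and 20 to 186 lower. Fewer libraries also leave fewer residual degrees of freedom, and without AstroEGFR*1, AstroEGFR*2, AstroEGFR*3, PT2 or PT3 the whole batch of that library adds nothing to the contrast. A pseudocount of 0.1, median-ratio scaling, the small RNA and histone features kept and no trend gave 569, 507, 475 and 484 calls. Of the 30 leading genes, 13 were called with PT1 and PT4 averaged, 10 without the filter, 14 without batch 3 and 13 to 26 with 1 library left out. None of the 88 called genes that the rule names reversed its direction in any alternative, and uncalled genes are not covered by this statement. The depth is unknown, so what it limits could not be given.

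Over the lists together, 71 calls became 32 without the block, 24 with PT1 and PT4 averaged, 17 without the filter, 15 without batch 3 and 12 to 53 with 1 library left out. In the order contractile, fibrillar matrix, neural matrix, integrins, YAP, TGF-β, astrocyte, EGFR, hypoxia, axon guidance and protease lists, the counts were 12, 18, 3, 2, 8, 10, 2, 1, 3, 7 and 4. Without the block they were 6, 7, 1, 2, 4, 5, 0, 0, 1, 4 and 1. With PT1 and PT4 averaged they were 7, 3, 1, 1, 4, 1, 1, 0, 1, 3 and 0. Without the filter they were 5, 1, 1, 0, 3, 1, 0, 0, 1, 3 and 0, and without batch 3 they were 2, 3, 1, 0, 3, 1, 1, 0, 0, 2 and 0. These counts take both directions together, and the astrocyte call without batch 3 was a rise, whereas the 2 of the fit to all libraries were falls. Integrins had 4 calls with the pseudocount of 0.1, and the EGFR list had 0 with the small RNA kept or without trend. With 1 library left out the ranges were 2 to 8, 2 to 12, 0 to 1, 0 to 3, 2 to 5, 1 to 9, 0 to 1, 0 to 1, 0 to 2, 1 to 6 and 0 to 2. The progenitor, oligodendrocyte, neuronal, replication and interferon lists, without a call, had 0 to 1. The fibroblast or meninges list had 3 falls, which became 1 without the block, without the filter or with PT1 and PT4 averaged and 1 to 2 with 1 library left out. The call of Tmem119 was lost in these settings and without batch 3, each left-out library included. The cause was not tested.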
